A study of Homo sapiens with 3 samples.

Results

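The comparison described here is the loss and gain of guide RNAs in NUGC3 cells grown without drug, from day 0 to day 14 of a pooled knockout screen. NUGC3 is an established human gastric cancer cell line, and the cells carried a GeCKO library, a pool of guide RNAs of which a cell takes up 1, which leads the nuclease Cas9 to its gene. The members are all 61916 targeting guides of the 62916 in the deposited table of DMSO day 14 over DMSO day 0, and the remaining 1000 guides are non-targeting controls. All guides of that table that name a target were taken, whatever their values. The groups were cells labelled DMSO Day0, cells labelled DMSO Day14, which were kept in the solvent DMSO, and, for values set side by side only, cells kept in 10 nM RTX for 14 days. The labels do not spell out RTX. All groups share the cell line and the library, and each group was 1 library, so no difference below has a replicate check and no p-value is given for a gene. The labels' treatment note gives the day 0 cells 14 days of DMSO, against their title, and the titles were followed. Guide reads in genomic DNA hold no expression, so the gastric label was not checked against markers.

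A cell that loses a gene it needs to divide or survive contributes fewer descendants to the pool, and the reads of that gene's guide fall. Genes with this behaviour in most human lines build and run the shared machinery of the cell: ribosomes, splicing, transcription, replication, protein turnover and mitochondria. Genes expressed only in other tissues, such as olfactory receptors, serve as a reference, since cutting them leaves most cultured lines unaffected. Loss of a growth suppressor can instead make a guide more common.

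The day 0 library held 16547572 reads with a median of 230 per guide, and the DMSO day 14 library held 18805737 with a median of 251. The RTX library held 17344507 reads. Guides at 0 reads numbered 24 at day 0 and 236 at DMSO day 14. The change of a guide is the log2 ratio of its normalised reads at day 14 and day 0, each with 5 added, centred on the median of all guides, for guides with at least 10 normalised reads at day 0. On this scale the change of guides with few reads is understated. By that filter 61619 targeting guides were measured and 297 were not. The median over the guides of a gene is its score, and 20150 of the 20449 targeted genes had a score from at least 2 guides. Of the others, 295 had 1 measured guide and 4 had none. A guide or gene is called lost at a log2 ratio or score of -1 or less, a 2-fold fall, and gained at 1 or more. These are limits of size, not tests.

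Guides were lost more often than they were gained. Among targeting guides 4680 were lost, a background of 7.6%, and 1415 were gained, 2.3%. The non-targeting guides give the spread without a cut gene. Of 991 measured, 20 were lost (2.02%, exact Clopper-Pearson 95% interval 1.24% to 3.10%) and 35 were gained (3.53%). Intervals of shares in this text treat guides or genes as independent draws. Intervals of summed reads cover counting error only and treat reads as independent. Reads of PCR products without molecular identifiers are not independent molecules, so such intervals may be too narrow. The non-targeting log2 ratios had an SD of 0.53 where counting of independent reads would give 0.15. Guides with no target thus varied by more than that counting error. Their median was 0.19, above the median of 0.00 of targeting guides. Set to the non-targeting median instead, every score falls by 0.19, 6575 targeting guides were lost and 694 gained, and the lost share of all guides past either limit went from 76.8% to 90.5%.

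The spread of single guides was smaller where reads were many. With guides split by their day 0 reads into 5 groups of like size, the lowest (10 to 117 reads) lost 6.5% of its non-targeting guides and gained 12.5%. At 390 reads or more, no non-targeting guide of 172 was lost or gained, and their SD was 0.33 against 0.79 in the lowest group. Guides against 33 lists of core cellular machinery were lost at 35.4%, 33.7%, 29.5%, 32.0% and 25.2% from the lowest to the highest group. Their loss was present at every depth, also where no non-targeting guide passed the limit.

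At the level of genes, 687 of 20150 were lost (3.41%) and 22 were gained (0.109%). The stricter count, genes with at least 3 measured guides that were each lost, gave 107 of 19523 (0.548%). No gene was gained by every guide, 0 of 19523 (0%). The number of lost genes rests on the scale and the limit, with 1073 when ratios were set to the non-targeting guides and 138 when edgeR's exact test on recovered reads had to call at least 2 guides of a gene lower. Genes of the core lists, 1187 with a score, had a median score of -0.53 against 0.00 for all genes. Of the core genes 26.2% were lost. They were 311 of the 687 lost genes and 64 of the 107 lost by every guide. The 5 reference lists (olfactory receptors, keratin-associated proteins, taste and related receptors, defensins and germline proteins) held 547 genes with a median of 0.07. Of these 4 were lost, 0.731%, and none by every guide.

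Guides to the same gene often disagreed. Among the 1151 core genes with exactly 3 measured guides, 434 had no lost guide, 416 had 1, 237 had 2 and 64 had all 3. For the 531 reference genes the numbers were 477, 50, 4 and 0. The core genes lost by every guide are thus a small part of those with a lost guide. DHX33, an RNA helicase of ribosome assembly, had the lowest score of all genes, -4.00, and shows the pattern. Its guides went from 128 to 4 and from 233 to 0 reads, and the third from 297 to 281. With 3 reads as the floor for a count of 0, the guide at 0 fell at least 86.7-fold. In the RTX library the same guides held 220, 195 and 420 reads.

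Ranked by their least-lost guide, the first genes after hsa-mir-566, a microRNA gene, were CDIPT, SS18L2, POP5, SRP54, RAD9A, NMT1, STX4, DONSON and PDS5A. CDIPT, the enzyme that makes phosphatidylinositol, went from 55, 220 and 121 reads at day 0 to 1, 8 and 22 at day 14, a score of -3.41. Its guides ranged from -4.24 to -2.36, all below the non-targeting 5th percentile of -0.67. POP5, a subunit of the RNase P and RNase MRP ribonucleoproteins that cut precursor tRNA and rRNA, went from 223, 203 and 155 reads to 27, 43 and 21, a score of -2.76. RAD9A, a subunit of the clamp that activates the ATR checkpoint at damaged forks, went from 217, 90 and 34 reads to 40, 10 and 4, a score of -2.45. NMT1, which attaches myristate to proteins, went from 132, 263 and 178 reads to 16, 53 and 40, a score of -2.36. In each of these genes all 3 guides lay below -2.

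SRP54, the signal-binding protein of the particle that brings nascent secretory proteins to the endoplasmic reticulum, went from 260, 102 and 27 reads to 57, 17 and 0. PDS5A, a regulator of the cohesin ring, went from 107, 183 and 77 reads to 13, 4 and 19, a score of -2.77 with a range from -4.50 to -1.91. DONSON, which acts in assembly of the replicative helicase, went from 144, 246 and 176 reads to 25, 55 and 47, a score of -2.22. STX4, a membrane fusion protein of the plasma membrane, went from 116, 56 and 80 reads to 13, 10 and 17. Summed over guides the fall of CDIPT was -3.83 on the log2 scale (95% counting interval -4.41 to -3.31) and that of STX4 -2.81 (-3.33 to -2.33). With reads taken as independent, counting error is thus small beside these changes. Variation between cultures is not covered by such an interval.

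The counts of lost genes in the lists below stand beside 3.41% of all genes. With ratios set to the non-targeting guides they stand beside 1073 of 20150. Many ribosomal proteins of the large subunit were lost. Of 42 scored genes 17 were lost, 5 by every guide, with a list median of -0.89, and 45.2% of their guides were lost. Set to the non-targeting guides, 26 of the 42 were lost. Of 30 small-subunit proteins 10 were lost and 1, RPS15A, by every guide, with a median of -0.50. RPL3, which reaches towards the peptidyl transferase centre, went from 199, 229 and 129 reads to 50, 72 and 35, so that its 3 guides lay close together between -2.04 and -1.76. RPL11, which joins the ribosome with the 5S RNA, had the lowest score of the list, -2.76, from 132, 100 and 144 reads to 6, 12 and 73. RPL23 had guides at -1.62, -1.51 and -1.62. Several small-subunit proteins that are part of every ribosome stayed near or above 0, among them RPS2 at 0.31, RPS3 at 0.37 and RPS15 at 0.53.

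Factors that assemble the ribosome followed. Of 80 scored genes 25 were lost and 5 by every guide (UTP23, UTP18, PES1, NIP7 and NOC4L), with a median of -0.63. UTP18, of the small-subunit processome, went from 430, 15 and 315 reads to 113, 1 and 68. NIP7, of the large-subunit pathway, went from 34, 68 and 257 reads to 8, 10 and 80. RNA polymerases I and III, which transcribe rRNA and tRNA genes, had 11 of 34 genes lost. In POLR1E, a polymerase I subunit, the guides went from 608, 362 and 132 reads to 206, 108 and 35. In the RTX library they held 920, 1174 and 274 reads, and its score over day 0 was 1.02 there against -1.85 in DMSO. The RTX and DMSO comparisons share the day 0 library, so such pairs of values are shown side by side without a test.

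Translation itself gave 14 lost genes of 42 initiation and elongation factors and 7 of 23 cytosolic aminoacyl-tRNA synthetases. EIF2S1, the alpha subunit of the factor that carries the initiator tRNA, went from 48, 331 and 87 reads to 21, 86 and 25, and EIF2B2, of its exchange factor, was likewise lost by every guide with a score of -1.56. YARS, the tyrosyl-tRNA synthetase, went from 408, 305 and 145 reads to 144, 111 and 35. TARS and HARS, for threonine and histidine, were lost by every guide too. The highest score was 0.54 in the list of factors and 0.36, that of RARS, in the list of synthetases.

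Of 36 genes that process or modify tRNA 12 were lost, with a median of -0.61. The 5 lost by every guide were POP5, ELP6, OSGEP, MOCS3 and ELP3. ELP3 and ELP6 belong to Elongator, which starts a modification of the wobble uridine in certain tRNAs, and MOCS3 acts in the thiolation of the same base. ELP6 went from 538, 141 and 234 reads to 96, 44 and 72, a score of -1.79. In the RTX library its guides held 1581, 324 and 427 reads. ELP3 went from 283, 259 and 495 reads to 82, 125 and 220, and held 681, 1024 and 1269 in RTX. MOCS3 went from 118, 433 and 357 reads to 41, 221 and 144, and held 278, 1083 and 1063 in RTX. All 9 of these guides were below their day 0 reads in DMSO and 8 of them held over 2 times their day 0 reads in RTX.

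Transcription of messenger RNA came next. RNA polymerase II had 4 of 12 subunits lost with a median of -0.84, and POLR2D, which went from 251, 317 and 138 reads to 86, 74 and 72, was lost by every guide. Of 46 general transcription and elongation factors 8 were lost and none by every guide. TBP, the TATA-binding protein, went from 184, 538 and 234 reads to 4, 199 and 217. Mediator, the coactivator that links factors to the polymerase, had 5 of 33 subunits lost (MED8, MED22, MED11, MED26 and MED9) and a median of -0.55. No subunit of its kinase module was lost, beside 3.41% of all genes, with CDK8 at -0.68, CCNC at -0.29, MED12 at 0.01 and MED13 at 0.28.

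The spliceosome had 27 of 69 genes lost and a median of -0.79. SNRPF, a ring protein of the small nuclear ribonucleoproteins, went from 38, 131 and 47 reads to 0, 65 and 9. PRPF8, at the catalytic centre, went from 122, 492 and 318 reads to 54, 253 and 61, and these were the 2 members lost by every guide. SF3B1, a branch-site factor, had a score of 0.27, while SF3B3 of the same complex had -1.57. Cleavage, polyadenylation and export factors had 10 of 28 lost, with SYMPK and THOC1 lost by every guide. Of 21 mRNA decay genes only CNOT3, the CCR4-NOT subunit, was lost (2 genes with ratios set to the non-targeting guides). That share, 4.76%, is near the 3.41% of all genes. The CNOT3 guides went from 591, 137 and 219 reads to 240, 0 and 78, and the scaffold CNOT1 had a score of -0.85.

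Protein turnover showed losses in both the conjugating and the degrading steps. Of 28 ubiquitin, SUMO and NEDD8 genes 11 were lost, with a median of -0.89. SKP1, the adaptor of SCF ubiquitin ligases, went from 702, 184 and 324 reads to 213, 51 and 55. NAE1 and UBE2M, which activate and transfer NEDD8, had scores of -2.61 and -2.24, but NAE1 had a guide that went from 24 to 59 reads beside guides that went from 24 to 0 and from 302 to 46. The proteasome had 11 of 32 genes lost and a median of -0.72. PSMB1, a core subunit, had guides at -1.46, -1.44 and -1.67. PSMD12 of the regulatory particle was the other proteasome gene lost by every guide.

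DNA replication had 12 of 51 genes lost, with a median of -0.56. CDC45, a part of the replicative helicase, had the lowest score, -3.01, from 84, 255 and 97 reads to 7, 170 and 5. GINS3, of the same helicase, went from 347, 436 and 143 reads to 121, 133 and 64 and was lost by every guide. With ratios centred on all guides, the 6 subunits of the MCM ring were not lost. Their scores were -0.95 for MCM5, -0.35 for MCM4, -0.18 for MCM7, -0.03 for MCM6, 0.45 for MCM2 and 0.66 for MCM3. Set to the non-targeting guides, every score falls by 0.19, which takes MCM5 past the limit, and 16 genes of the list were lost. In the checkpoint list 3 of 9 genes were lost. CHEK1, the effector kinase, went from 117, 404 and 386 reads to 41, 168 and 118, while ATR itself had a score of 0.19.

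Supply of nucleotides was also affected. Of 16 genes for deoxynucleotides and thymidylate 6 were lost, and of 12 de novo purine and pyrimidine genes 6 were lost. CMPK1, which phosphorylates CMP and UMP, went from 419, 708 and 210 reads to 65, 163 and 98. TYMS, thymidylate synthase, went from 388, 548 and 381 reads to 505, 197 and 172, a score of -1.28 with guides from -1.61 to 0.22. GART, of purine synthesis, went from 205, 237 and 319 reads to 63, 80 and 319. In each of TYMS and GART 1 guide of 3 stayed inside the limits, at 0.22 and -0.16.

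Folate transport and storage genes did not share in that loss. None of 15 was lost, beside 3.41% of all genes, and the list median was 0.23. The reduced folate carrier SLC19A1 went from 35, 199 and 357 reads to 87, 284 and 414 in DMSO, and the same guides held 2578, 10090 and 43111 reads in RTX. FPGS, which adds glutamates to folates, went from 216, 139 and 264 reads to 165, 48 and 306, a score of -0.53, and held 1696, 8547 and 1491 in RTX.

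Mitosis genes had 18 of 58 lost and 5 by every guide (CDC16, MAD2L1, CENPM, SPC24 and SPC25), with a median of -0.62. CDC16, of the anaphase-promoting complex, went from 183, 540 and 309 reads to 25, 117 and 159. MAD2L1, of the spindle checkpoint, went from 80, 213 and 84 reads to 18, 7 and 41. Cohesin and condensin had 4 of 22 lost, and the values of some related genes lay apart. STAG2 went from 225, 82 and 504 reads to 125, 34 and 176, a score of -1.30. Its paralog STAG1 went from 298, 948 and 155 reads to 425, 1439 and 192, a score of 0.35. PDS5B, the paralog of PDS5A, had a score of -0.11 from 68, 75 and 88 reads to 70, 83 and 74.

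Other pairs of related genes were compared in the same way, 30 in all, chosen with earlier results known. The guides of 5 pairs did not overlap, a count that has no background from unrelated genes here and is a description only. Besides the cohesin pairs, ARID1B (-0.42, 2 guides) lay below ARID1A (0.01), SMARCC2 (-0.43) below SMARCC1 (0.54), and IDH2 (0.08) below IDH1 (0.44). In these 3 pairs no gene passed a limit. With so few guides a gene, a pair that overlaps is not shown to act alike.

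Mitochondrial protein synthesis lost genes in each of its parts. Of 78 mitochondrial ribosomal proteins 18 were lost, 7 by every guide, with a median of -0.54, and of 28 mitochondrial synthetases and factors 9 were lost with a median of -0.71. The count for the ribosomal proteins was 28 with ratios set to the non-targeting guides. MRPL39 went from 418, 747 and 299 reads to 100, 211 and 142, a score of -1.96. MRPL33 had guides at -1.30, -1.63 and -1.65. POLRMT, the mitochondrial RNA polymerase, lies outside these lists and went from 197, 255 and 69 reads to 85, 22 and 9. LONP1, the protease of the mitochondrial matrix, went from 226, 274 and 537 reads to 18, 23 and 178, a score of -3.46.

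Genes of the respiratory chain were lost as well. Complex I had 8 of 46 genes lost, none by every guide, with a median of -0.26, and complexes II to V had 6 of 54 with a median of -0.45. Set to the non-targeting guides, complexes II to V had 14 lost. COX6B1, of cytochrome c oxidase, had the lowest score, -3.02, from 60, 317 and 79 reads to 3, 39 and 50. ATP5F1, of the ATP synthase, was lost by every guide, from 209, 312 and 72 reads to 114, 123 and 11. In iron-sulfur cluster assembly 6 of 20 were lost. NFS1, the cysteine desulfurase that supplies the sulfur, went from 445, 301 and 263 reads to 122, 85 and 83, and FAM96B, which delivers clusters to cytosolic and nuclear proteins, from 62, 382 and 153 to 15, 95 and 40. FAM96B held 69, 344 and 272 reads in RTX.

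Genes of membranes differed by pathway. The vacuolar proton pump had 6 of 13 genes lost, with a median of -0.84 and 48.7% of its guides lost. ATP6V0C, the ring that carries the protons, went from 184, 278 and 74 reads to 23, 94 and 2, and ATP6V0D1 from 104, 217 and 100 to 45, 100 and 0. Vesicle coats and fusion had 16 of 70 lost, and 2 of its members, TSG101 and CLTA, were gained, where 0.109% of all genes were. CLTA had a score of 1.03 with guides from 0.12 to 1.88. Set to the non-targeting guides, every score falls by 0.19 and CLTA is no longer gained. TSG101, a sorting protein of the ESCRT machinery, went from 331, 89 and 75 reads to 438, 335 and 225. Glycosylation and lipid genes had 9 of 58 lost, with CDIPT, NMT1 and GFPT1 by every guide, and 14 with ratios set to the non-targeting guides. GFPT1, the entry enzyme of the hexosamine pathway, went from 319, 138 and 196 reads to 148, 50 and 65. Among the core lists only cholesterol synthesis had no lost gene, 0 of 18, beside 3.41% of all genes. The interval of that share, 0% to 18.5%, includes the share of all genes, so no lack of loss is shown. The list median was 0.01, and 1.85% of its guides were lost, beside 2.02% of non-targeting guides. With the ratios set to the non-targeting guides this median is -0.18 and 1 gene is lost.

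Central carbon metabolism had 10 of 49 genes lost and a median of -0.22. The lost genes were 5 of glycolysis, 4 of the pentose phosphate pathway and FH of the citrate cycle. TKT, transketolase, went from 177, 192 and 402 reads to 22, 85 and 94, and ENO1, enolase, from 86, 111 and 20 to 32, 10 and 7. PGD, which makes NADPH in the oxidative branch, had a score of -2.70 from only 2 measured guides. GAPDH had -2.37, ALDOA -1.74 and TPI1 -1.70. GAPDH guides went from 705, 464 and 157 reads to 148, 570 and 11. LDHA and LDHB, the lactate dehydrogenases, had scores of 0.08 and 0.83, and PKM 0.03. The sugar transporter SLC2A1 had 0.29.

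Signalling genes were lost at a share near that of all genes. Of 68 growth factor, RAS and PI3K genes 2 were lost (2.94%, beside 3.41% of all genes), with a median of -0.07. With ratios set to the non-targeting guides 6 were lost, where all genes gave 1073 of 20150. The 2 were MYC and TLN1, the adaptor that joins integrins to actin. MYC, a transcription factor that drives growth and ribosome production, went from 246, 117 and 219 reads to 268, 36 and 90, a score of -1.39 with guides from -1.72 to -0.03. In RTX the MYC guides held 575, 179 and 511 reads. Its partner MAX had a score of -0.40. Oncogenes known from gastric tumours stayed inside the limits, with ERBB2 at -0.17, PIK3CA at 0.40, CTNNB1 at -0.23, EGFR at -0.44 and MET at 0.39.

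Growth suppressors showed no gain past the limit. Of 47 scored genes none was gained, where 0.109% of all genes were, so none is near that share. Of the 47, 1 was lost (2.13%, beside 3.41% of all genes). With ratios set to the non-targeting guides 2 were lost, where all genes gave 1073 of 20150. The 1 lost gene was STK11, a kinase that activates AMPK, with guides at -0.81, -1.05 and -1.02. The score of NF1 was -0.22, that of NF2 -0.41, RB1 0.39 and SMAD4 0.40. CDH1, E-cadherin, went from 96, 290 and 326 reads to 15, 188 and 258, a score of -0.77. The highest scores of the list were PAWR at 0.75, TAOK1 at 0.64 and BAX at 0.63, none past the limit. Of 29 gastric and intestinal lineage genes none was lost or gained, where 3.41% of all genes were lost and 0.109% gained. In so short a list none is near those shares. FOXA1, CDX2, GATA6, HNF4A and KLF5 had scores of -0.79, -0.45, 0.24, 0.16 and 0.57.

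SWI/SNF, SAGA and NuA4 chromatin complexes had 6 of 41 genes lost and a median of -0.33. The lost genes were YEATS4, ACTL6A, SMARCB1, SMARCD1, TRRAP and MRGBP. YEATS4, a reader of acetylated histones, went from 154, 129 and 670 reads to 125, 44 and 183. SMARCA4, a SWI/SNF ATPase, had a score of -0.33 with guides spread from -1.84 to 0.96.

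Beyond the lists, 35 genes were lost by every guide. These were chosen by that count, after their values were seen, apart from SS18L2, LONP1 and SMC6. Many have textbook roles next to the lists. MAK16, PDCD11, URB1, DCAF13 and MKI67IP belong to ribosome assembly, with scores of -2.84, -1.62, -1.17, -1.78 and -1.19. SMU1 and SRSF1 act in splicing, with -1.86 and -1.98, PSMG1 in proteasome assembly with -1.98, and SKIV2L2 in the nuclear exosome with -1.57. TBCD, a tubulin folding cofactor, went from 263, 299 and 93 reads to 91, 52 and 14. SMC6, of the third SMC complex, went from 146, 216 and 157 reads to 44, 70 and 28. TRAIP and MMS22L, which act at stalled forks, had scores of -1.39 and -1.35. PKMYT1, an inhibitory kinase of CDK1, went from 180, 146 and 128 reads to 35, 52 and 3, beside a score of -1.04 for the related kinase WEE1.

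Others of the 35 stand alone. SOD1, the cytosolic superoxide dismutase, went from 262, 209 and 259 reads to 48, 35 and 100, a score of -2.48. The copper chaperone of SOD1, CCS, was by contrast among the 22 gained genes, from 333, 141 and 202 reads to 205, 389 and 551, with guides from -0.84 to 1.28. NRF1, a regulator of nuclear genes for mitochondria, went from 201, 145 and 234 reads to 58, 52 and 68. DNM1L, which divides mitochondria, had -1.59. EWSR1, an RNA-binding protein, went from 395, 178 and 73 reads to 45, 34 and 38. PTPN23, an ESCRT-associated protein, had -1.45, and PAK2, a kinase of the cytoskeleton, had -1.72. SS18L2 went from 206, 109 and 166 reads to 43, 21 and 3, a score of -2.29.

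Gains past the limit were rarely shared by a gene's guides. The genes with the highest least-gained guide were STEAP4, a metalloreductase, from 122, 74 and 167 reads to 275, 222 and 323 with a score of 0.99, and PHYHIP, CBLN2, RPS6KA5, NFATC2, GXYLT2, DOCK6 and MAGEA11, with scores from 0.67 (MAGEA11) to 1.12 (DOCK6). Of these DOCK6 alone reached the limit. Of the 41 targeting guides at a log2 ratio of 2 or more, none had another guide of the same gene at 1 or more. Of all targeting guides 2.3% were at 1 or more, so few such pairs could be seen. The other guides of these genes had a median of -0.02. The 41 had a median of 44 reads at day 0, against 115 for guides at -3 or less, so the sets differ in depth. The largest gain was a guide to MMRN1, from 198 reads to 4316, which held 227 in RTX. Among guides at -3 or less, 196 had a gene with a score. Of these 113 belonged to a lost gene, where 3.41% of all genes were lost. Another guide of the gene was at -1 or less for 112 of them, where 7.6% of all targeting guides were. The guides counted are part of their gene's score, so the count of 113 is a description.

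Guides that may cut more than 1 place are part of the totals above and are described here by themselves. Without microRNA genes and multi-copy families 630 genes were lost in place of 687, and 101 by every guide in place of 107. The list of 141 genes in multi-copy families had 8 lost (5.67%, beside 3.41% of all genes) and a median of -0.11. The interval of that gene share, 2.48% to 10.9%, includes the share of all genes, so no excess of lost genes is shown. Of its guides 11.0% were lost (interval 8.20% to 14.4%), beside 7.6% of all targeting guides. Guides of 1 gene or of near-identical copies are not independent draws. That interval may be too narrow, and no excess of lost guides is drawn from it. Set to the non-targeting guides, 15 of the genes were lost, where all genes gave 1073 of 20150. WASH1 went from 554, 278 and 93 reads to 92, 81 and 9, and GOLGA6L4 from 222, 178 and 37 to 69, 29 and 2. Both have near-identical copies, so their values are uncertain as those of 1 gene, and the part that several cut sites play was not tested.

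The library also targets microRNA genes, and 49 of 1654 were lost (2.96%, beside 3.41% of all genes), 4 by every guide. The lost share is no higher than the background, so the values below describe single genes and no result about microRNA genes as a group. A microRNA recognises its targets mainly through its seed, bases 2 to 8. The 5 genes whose least-lost guide fell furthest were hsa-mir-566, hsa-mir-3180-4, hsa-mir-663b, hsa-mir-8086 and hsa-mir-663a. Mature sequences from RefSeq on GRCh38.p14 were found for 4 of them and are shown to compare their seeds, which are in capitals.
hsa-miR-3180 (chr16:15154949-15154967, minus strand): uGGGGCGGagcuuccggag
hsa-miR-663b (chr2:132256970-132256991, minus strand): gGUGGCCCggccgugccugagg
hsa-miR-8086 (chr10:28289319-28289340, minus strand): uGCUAGUCuggacugauauggu
hsa-miR-663a (chr20:26208243-26208264, minus strand): aGGCGGGGcgccgcgggaccgc

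No seed is shared among these 4. The mature sequence of hsa-mir-3180-4 is made at 2 loci of the RefSeq table, of which 1 is shown. The guides to hsa-mir-566 went from 147, 41 and 32 reads to 27, 0 and 0, a score of -2.96, and held 58, 0 and 2 in RTX. Those to hsa-mir-3180-4 went from 413, 141 and 82 reads to 177, 52 and 9. For hsa-mir-663b they went from 15, 287 and 122 to 0, 132 and 51, and for hsa-mir-8086 from 10, 37 and 93 to 0, 2 and 42. Several of these guides had few reads at day 0. Of the targeted microRNA genes 104 have a mature sequence made at 2 or more loci of that table, and 3.85% of them were lost. Of 922 made at 1 locus 2.28% were lost, and 3.82% of 628 with no match in the table, beside 3.41% of all genes. None of the 12 made at 5 or more loci was lost. The shares rest on 4, 21 and 24 lost genes, and no order by number of loci can be read from them.

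Scores differed little between chromosomes. Outside the core lists, chromosome medians lay between -0.03 (chromosome 20) and 0.08 (chromosome X). Chromosome 21 was at 0.05 in DMSO, against 0.72 in RTX over the same day 0 library. In 16613 windows of 25 neighbouring genes the median score lay between -0.15 and 0.16 in 90% of windows, with -0.34 as the lowest, from KCNT1 to KIAA1984 on chromosome 9.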

How the data were processed

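Genomic DNA of the 3 cultures was amplified in a two-step PCR and sequenced on an Illumina HiSeq instrument, per the labels' protocols. MAGeCK 0.5.7 and the build hg19 are named in the submitters' processing notes. The matching of reads to guide sequences was not given in the sources used here. The deposited tables hold, per the file headers, a normalised read value per guide and library, a signal that the authors made by scaling reads within each pair of libraries. The deposited tables also give the authors' log2 fold change, score, p-values and FDR per guide. At an FDR under 0.05 the authors' deposited table has 174 of 991 non-targeting guides as higher (17.6%) and 9 as lower (0.908%), so those calls were not used. Whole reads were recovered by dividing by what 1 read is worth, with 0.1 as tolerance (100% of values at day 0 and DMSO day 14, 99.9984% for RTX), and the reads printed are these.

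Scores were computed in Python 3.11.15 (numpy 2.4.6, pandas 2.3.3). edgeR 4.0.16 in R 4.3.3 ran its exact test on these reads, with a dispersion of 0.0618 taken from non-targeting guides, as an alternative chosen after the data were seen. Its dispersion takes the spread between guides in place of that between cultures, so it compares these 2 libraries. With 1 sample per group, edgeR's quasi-likelihood test has no residual degrees of freedom and was not run. Both procedures were tested on simulated data. The 72 guides of 23 names that had become dates were left out of gene scores. The members and the 47 gene lists were chosen with earlier results of these data known. Named genes were the 20 with the lowest least-lost guide, the 8 with the highest least-gained guide, the lowest 3 (for metabolism, growth control and lineage also the highest 3) of each list, 5 microRNA genes and 21 fixed names. Other genes named were chosen after their values were seen. Symbols were placed through the RefSeq table of GRCh38.p14 (19097 of 20150, 2028 by synonym). Guide sequences were not used here. Values of some genes are not reported here.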

Additional observations from a re-analysis of the deposited data

How the results depend on the processing

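Lost genes numbered 1073 with the ratios set to the non-targeting guides, 247 with a limit of 1.5, 2377 with a limit of 0.5 and 138 by edgeR's exact test at an FDR under 0.05. Genes lost by every guide numbered 171, 34, 403 and 15 in the same order. Lost guides numbered 2129 with a limit of 1.5, 11963 with 0.5 and 1345 by edgeR. Gained genes numbered 37 with a pseudocount of 1, 11 with 20, 14 with at least 50 reads at day 0, 7 set to the non-targeting guides, 1 with a limit of 1.5, 1143 with 0.5 and 0 by edgeR, where 1190 guides were higher and 4243 lower at an unadjusted p under 0.05. Gained guides numbered 884 with a pseudocount of 20, 694 set to the non-targeting guides, 222 with 1.5, 8687 with 0.5 and 83 by edgeR. Genes gained by every guide numbered 1 with no filter and 72 with a limit of 0.5. Of the recomputed scores of named genes 77 moved by more than the spread of their guides and 2512 did not, and none changed sign past a limit. Set to the non-targeting guides, 5 list medians turned negative (cholesterol synthesis, lineage factors, olfactory receptors, keratin-associated proteins and defensins). No paired analysis was possible because each condition is 1 library. With few reads at day 0 the spread of single guides limits what can be seen, and variation between cultures was not measured.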

Other observations

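Among 26 apoptosis regulators BCL2L2 was lost, with a score of -1.08 from only 2 measured guides, and none was gained. That is 3.85% of the list, beside 3.41% of all genes, and 2 genes with ratios set to the non-targeting guides. The anti-apoptotic genes BCL2L1 and MCL1 had scores of 0.48 and 0.14. CFLAR, which blocks caspase-8 activation, went from 481, 197 and 97 reads to 438, 109 and 39, a score of -0.98. The nuclear pore and import list had 6 of 39 genes lost. XPO1, the main export receptor, went from 62, 504 and 96 reads to 72, 182 and 29. In the TRiC and heat shock list 2 of 20 were lost, and 5 with ratios set to the non-targeting guides, where all genes gave 1073 of 20150. The interval of the first share, 1.23% to 31.7%, includes the 3.41% of all genes, so no excess is shown. TCP1, a TRiC subunit, went from 145, 122 and 148 reads to 65, 46 and 64, while HSPD1 and HSPA9, the mitochondrial chaperones, had scores of 0.54 and 0.51.

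Of the 154 measured targeting guides at 0 reads on day 14, 53 belonged to lost genes, where 3.41% of all genes were lost. These guides are part of their gene's score, so the 53 is a description. Core genes held 32 of the 154, beside 3528 of all 61619 measured targeting guides. For 49 of the 154 another guide of the gene was at -1 or less, where 7.6% of all targeting guides were. Their genes' other guides had a median of -0.20. The 154 guides had a median of 23 reads at day 0.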
